A study of Mus musculus with 3 samples.

Results

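Fasn, Acaca, Acly, Elovl1, Elovl6, Me1, Acsl3, Acss2, Fads1 and Fads2 encode enzymes that make, activate, lengthen and desaturate fatty acids. They were taken as a list by gene symbol, and each of the 10 symbols named 1 of the 32285 genes in the deposited matrices. All 10 passed the filter on low counts that left 14080 genes for testing.

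The study profiled mouse blastoids, aggregates of stem cells that mimic the blastocyst-stage embryo, by droplet single-cell RNA-seq. There were 3 libraries, titled NrESC_Type_III, NrESC_Type_II and NrESC_Type_I, here Type III, Type II and Type I, with 1 library for each type. The labels do not define the types, and the series asks how the transcriptomes of the lineages within the blastoid differ. Cells of the E14 embryonic stem cell line were kept with LIF and 10 µM T0901317, an agonist of the liver X receptors that Nr1h2 and Nr1h3 encode. All 3 groups share this treatment and were then grown with 12.5 ng/mL rhFGF4, 0.5 µg/mL heparin and 3 µM CHIR99021. In every library the seeding medium also held 2 µM Y-27632, and the later medium held 5 ng/mL BMP4 and 0.5 µM A83-01. Blastoids were picked by hand and harvested on day 5, and the labels name no separate blastoids within a library. No library without T0901317 was analysed here, so nothing below compares treated with untreated cells.

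Fatty acid synthesis starts in the cytosol, where ATP citrate lyase (Acly) and the acetyl-CoA synthetase Acss2 supply acetyl-CoA. Acetyl-CoA carboxylase (Acaca) turns it into malonyl-CoA, and fatty acid synthase (Fasn) builds palmitate from that with NADPH, some of which comes from malic enzyme (Me1). Elongases (Elovl6, Elovl1) and desaturases (Fads1, Fads2) modify the product, acyl-CoA synthetases such as Acsl3 activate fatty acids for use, and liver X receptors and SREBP1c are known activators of several of these genes. The visceral endoderm of the mouse embryo is known for taking up, making and secreting lipids and lipoproteins.

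Barcodes with at least 10000 UMIs (unique transcript molecules counted) and at most 20% mitochondrial UMIs were kept. They numbered 272 of 2310 in Type III, 1992 of 9265 in Type II and 1405 of 6813 in Type I, and held 82.2% to 86.9% of each library's UMIs. Each kept cell was given the first state whose marker sum it reached, in CPM (counts scaled to a fixed total in each cell or sum). The order was visceral endoderm (VE, carrier genes Ttr, Rbp4, Apoa1 and Apoa2 at 1000 CPM), early primitive endoderm (early PrE, Gata6, Sox17 and Gata4 at 100 CPM), trophectoderm (TE, Krt8, Krt18 and Krt19 at 800 CPM) and epiblast (EPI, Pou5f1 at 150 CPM). This gave 1025 VE, 692 early PrE, 558 TE and 1054 EPI cells, while 340 cells met no threshold. None of the 10 enzyme genes is part of the rule. Type III had only 19 VE cells, under the minimum of 20 for a summed profile, so VE rests on Types II and I and the other states on all 3 libraries.

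Markers outside the rule set endoderm, TE and EPI apart, and VE and early PrE less so. The 8 primitive endoderm markers summed to 6757 to 6960 CPM in VE and 7633 to 8753 CPM in early PrE. In TE they summed to 440 to 543 CPM and in EPI to 93.7 to 157 CPM. The 10 further visceral endoderm markers summed to 5619 to 7021 CPM in VE and 2031 to 2291 CPM in early PrE, against 72.6 to 134 CPM in TE and 20.3 to 71.2 CPM in EPI. Among them Cubn did not part VE from early PrE, with 532 to 890 CPM in VE and 637 to 944 CPM in early PrE. Each other gene of that list was higher in VE than in early PrE. The gap was small for Foxa2 (46.8 to 55.5 against 41.2 to 45.8 CPM) and wide for Apoc2 (1304 to 1630 against 46.1 to 78.9 CPM). The 10 trophectoderm markers summed to 1045 to 1252 CPM in TE and to at most 180 CPM elsewhere, a sum carried by Gata2 (241 to 329 CPM in TE), Rhox6, Rhox9 and Sfn. Elf5, a regulator of the later trophoblast, was near 0, at 0.475 to 1.01 CPM in TE. The trophoblast regulator genes Cdx2 and Eomes did not stand above their VE levels in TE, with 4.82 to 12.5 CPM of Cdx2 in TE and 10.9 to 18.9 CPM in VE, and 1.77 to 2.47 CPM of Eomes in TE and 6.51 to 9.16 CPM in VE. The desmosome gene Dsp had 58.5 to 70.2 CPM in TE and 54.0 to 90.4 CPM in VE. The 9 naive epiblast markers summed to 5104 to 5401 CPM in EPI, but also to 1317 to 1615 CPM in early PrE and 628 to 1604 CPM in TE. Dppa5a made up most of the latter sums, at 1137 to 1409 CPM in early PrE and 391 to 1144 CPM in TE. Zfp42 and Utf1 had 71.1 to 83.0 and 59.5 to 93.7 CPM in early PrE. In TE they had 61.9 to 92.0 and 140 to 241 CPM, and in EPI 427 to 640 and 306 to 365 CPM. Nanog had only 2.00 to 4.62 CPM in early PrE and 7.22 to 14.6 CPM in TE, against 133 to 202 CPM in EPI. The 5 primed epiblast markers summed to 255 to 330 CPM in EPI and 122 to 180 CPM in TE. In early PrE and VE they summed to 120 to 203 CPM and 99.0 to 126 CPM. Of these, Pou3f1 had 37.3 to 73.5 CPM in TE and 24.8 to 44.5 CPM in EPI. Otx2, Fgf5, Dnmt3b and Nodal were lower in TE than in EPI. More than 1 state threshold was met by 1012 of the 1025 VE cells, 447 of the 692 early PrE cells and 54 of the 558 TE cells. The order of the rule decided the state of such cells. At or over the Pou5f1 threshold were 127 of the 692 early PrE cells, 54 of the 558 TE cells and 21 of the 1025 VE cells. With these cells left out, 9 of the 10 enzyme genes were higher and 1 was lower in early PrE than in EPI, and 2 were higher and 4 lower in TE than in EPI, as with them. The 5 parietal endoderm markers summed to 735 to 1012 CPM in VE and 1334 to 1494 CPM in early PrE, against at most 82.8 CPM in TE and EPI. Srgn (732 to 970 CPM in early PrE) and Lamb1 (501 to 565 CPM in early PrE) carried these endoderm sums. Thbd was near 0 in every state. Fst went the other way, with 32.85 to 47.9 CPM in EPI and 3.56 to 5.50 CPM in early PrE. Those of streak mesoderm stayed at or under 44.6 CPM in every state. The 2-cell-like markers summed to 49.4 CPM in early PrE of Type III and to at most 1.28 CPM in every other sum, and those of blood and endothelium to 32.5 CPM in early PrE of Type III and to at most 6.56 CPM in every other sum. The median mitochondrial share was 4.85% to 6.16% in VE, 4.29% to 4.98% in early PrE, 3.47% to 3.84% in TE and 3.60% to 4.24% in EPI, and at a limit of 10% for each cell no count of enzyme genes called between states changed. Libraries shared 151 to 209 barcode sequences, of which 1 was kept in both libraries.

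RefSeq promoter windows on GRCm38.p6, from 250 bases before to 50 bases after the start of transcription, were matched by symbol for 9 of the 10 genes, all but Fads1. By the GENCODE M21 annotation of the same build, Fasn (120805846-120824547), Acly (100476353-100528000) and Acaca (84129672-84401651) lie on chromosome 11. Elovl1 lies on chromosome 4 (118428093-118432953), Elovl6 on chromosome 3 (129532355-129638495) and Me1 on chromosome 9 (86581371-86695953), while Acsl3 lies on chromosome 1 (78657825-78707743) and Acss2 on chromosome 2 (155517948-155585724). Windows are shown 5′ to 3′ on the gene's strand for Fasn, the synthase itself, and for the elongases Elovl1 and Elovl6, which had their lowest and their highest mean level in EPI. They lie at chr11:120824498-120824797 on the minus strand, chr4:118427843-118428142 on the plus strand and chr3:129532136-129532435 on the plus strand. Capitals mark CCAAT on either strand.
Fasn: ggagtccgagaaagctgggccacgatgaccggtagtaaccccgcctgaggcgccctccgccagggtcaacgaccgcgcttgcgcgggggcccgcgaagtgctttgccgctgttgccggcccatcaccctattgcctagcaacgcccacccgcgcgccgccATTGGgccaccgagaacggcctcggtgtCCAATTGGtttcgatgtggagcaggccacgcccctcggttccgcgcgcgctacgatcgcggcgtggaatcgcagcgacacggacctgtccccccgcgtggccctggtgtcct
Elovl1: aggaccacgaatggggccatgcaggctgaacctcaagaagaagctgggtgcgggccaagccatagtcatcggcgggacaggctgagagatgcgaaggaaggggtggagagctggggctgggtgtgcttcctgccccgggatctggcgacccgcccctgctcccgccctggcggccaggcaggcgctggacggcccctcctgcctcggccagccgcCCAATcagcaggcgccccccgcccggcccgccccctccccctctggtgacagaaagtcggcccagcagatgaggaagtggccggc
Elovl6: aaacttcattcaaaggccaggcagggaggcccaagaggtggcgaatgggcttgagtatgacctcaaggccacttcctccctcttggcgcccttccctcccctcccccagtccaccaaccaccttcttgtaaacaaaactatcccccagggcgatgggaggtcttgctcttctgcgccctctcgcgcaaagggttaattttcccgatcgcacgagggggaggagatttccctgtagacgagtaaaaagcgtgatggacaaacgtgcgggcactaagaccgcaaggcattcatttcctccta
With the start base counted as 0, Fasn has CCAAT at -62 to -58 on the plus strand and at -90 to -86 and -59 to -55 on the minus strand, and the pair nearest the start overlap. Elovl1 has it at -35 to -31, and the window of Elovl6 has none. Both strands were also searched for the SREBP site TCACNCCAC, the E-box CACGTG and the liver X receptor repeat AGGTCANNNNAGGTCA. The 9 genes have 11 windows, since Elovl1 and Me1 have 2 each. CCAAT was found in 6 of the 11 (those of Fasn, Acly, Acsl3 and Acss2, the first of Elovl1 and the second of Me1), against 37.4% of all 32851 windows in the table. None of the other 3 motifs was found in the 11 windows, while they occur in 1.24%, 7.15% and 0.0152% of all windows. At shares this low few matches, if any, would be met in 11 windows, so finding none says little about these genes. Sites farther away or with other letters were not searched. The window of Acaca (84195188-84195487) lies inside the gene, away from its annotated start at 84129672. These are matches of letters and do not show binding.

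As a group, the 10 genes were highest in endoderm. Their summed level in VE was 856 (Type II) and 763 CPM (Type I), and 926, 843 and 782 CPM in Types III, II and I in early PrE. TE gave 520, 531 and 513 CPM, and EPI gave 304, 363 and 348 CPM, each in the order Types III, II and I that is kept below, so the endoderm sums lay above every TE sum and every TE sum above every EPI sum. The group mean was 809 ± 65.8 CPM in VE (SD, n = 2), 850 ± 72.0 in early PrE, 522 ± 8.98 in TE and 338 ± 30.9 in EPI (SD, n = 3 each). By mean level, 8 of the 10 genes were highest in one of the endoderm states, Acsl3 was highest in TE and Elovl6 in EPI. The share of all genes with their highest mean in VE or early PrE was not counted, so this count has no background. Acsl3 and Elovl1 carried the difference between the TE and EPI sums. Acsl3 had 201 to 222 CPM in TE and 59.0 to 79.6 CPM in EPI. Elovl1 had 47.0 to 62.4 CPM in TE and 7.14 to 10.4 CPM in EPI. Of the other genes, Elovl6, Fads1 and Fads2 had lower means in TE than in EPI, and the rest were higher by less. Me1 added most to early PrE over EPI, at 238 to 270 CPM against 29.7 to 32.6 CPM. These levels use plain totals, and TE over EPI calls depended on the scaling (below).

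**Figure D1:**
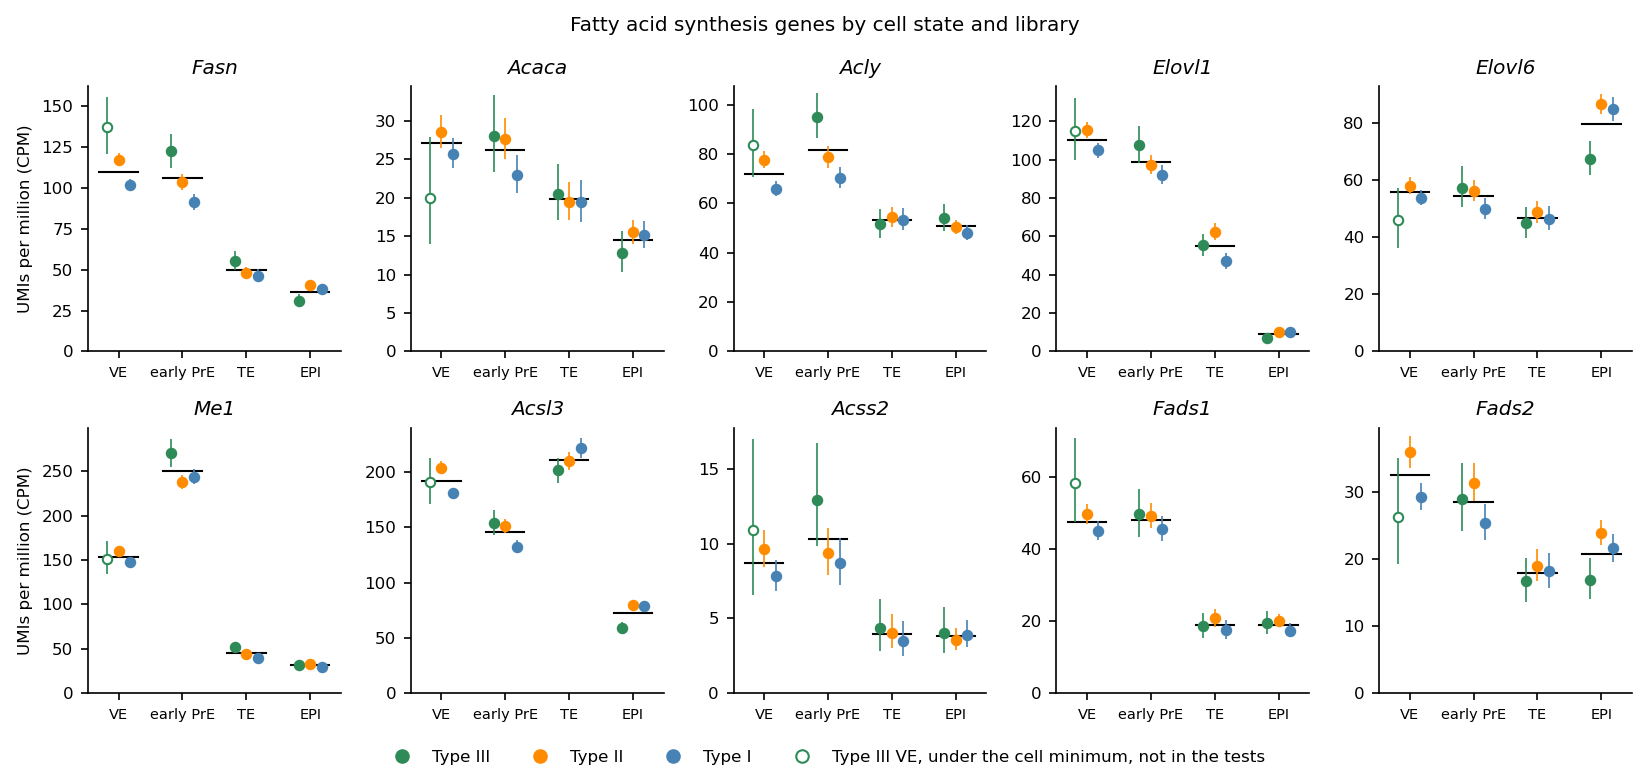
Level of each gene in CPM (vertical axis, from 0) in the 4 states, with 1 point for each library, its 95% Poisson counting interval as a vertical line, and the mean of the tested libraries as a horizontal bar. For Elovl1, VE and early PrE lie at 92.2 CPM and above and EPI at 10.4 CPM and below, while for Elovl6 the EPI points (67.5 to 86.5 CPM) are the highest. The open VE point of Type III holds 19 cells and entered no test.

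States were compared with edgeR's quasi-likelihood test on the UMI counts summed over the cells of each library and state, with library as a block, TMM scaling (which sets the bulk of genes level between sums) and Benjamini-Hochberg adjustment over all 14080 genes. Genes with an adjusted p under 0.05 are called. The 3 types stand in for replicates, so a p-value measures how alike a difference was across types, and nothing in the labels says whether the libraries came from separate cultures. In VE over EPI 9 of the 10 genes were higher, where 37.5% of all genes were, and 1 was lower, where 36.6% were. Early PrE over EPI gave the same counts of 9 higher and 1 lower, with 36.2% and 34.2% of all genes. The median log2 fold change of the 10 genes was 1.15 in VE and 1.02 in early PrE, both over EPI, against 0.01 and 0.03 for all genes tested. Both comparisons share the EPI sums, so their likeness is not a separate result. TE over EPI differed from this, with 2 higher (Elovl1 and Acsl3) and 4 lower (Elovl6, Acly, Fads1 and Fads2), where 27.4% and 31.1% of all genes were called, and a median of -0.09 against -0.03.

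The TE over EPI calls depended on the scaling. With plain library totals in place of TMM, the fold changes of all genes moved by 0.33 on the log2 scale in TE over EPI, by 0.14 in VE and in early PrE over EPI, by -0.19 in each endoderm state over TE, and by less than 0.01 in VE over early PrE. The counts in TE over EPI were then 5 higher and 1 lower. In VE over TE 9 genes were higher, where 33.1% of all genes were, and none was lower, where 30.5% were. In early PrE over TE 9 were higher and 1 was lower, where 31.1% and 27.9% of all genes were. The medians of the 10 genes were 1.09 in VE and 0.93 in early PrE, both over TE, against 0.01 and 0.02 for all genes.

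**Figure D2:**
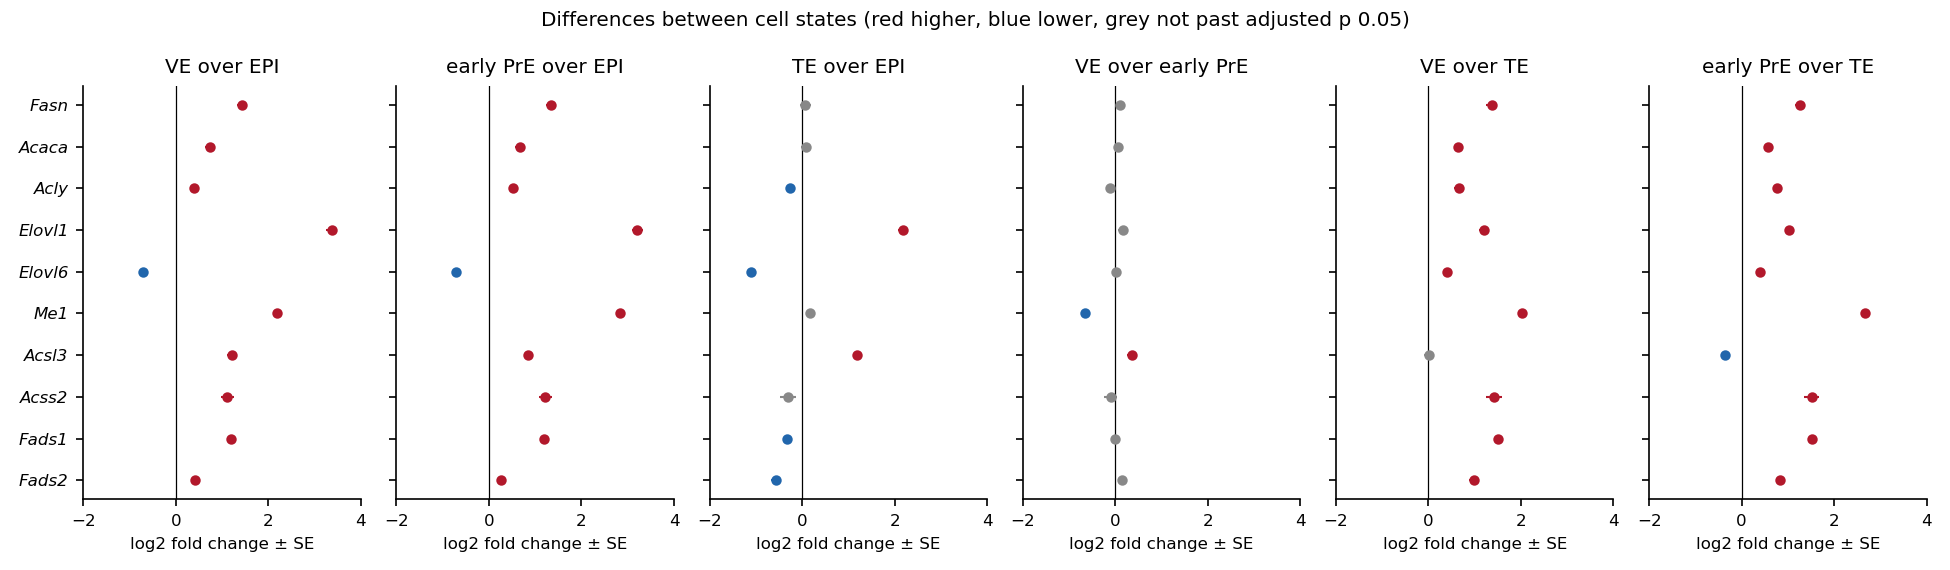
Log2 fold change ± SE of the 10 genes in the 6 comparisons, with red for higher, blue for lower and grey for an adjusted p of 0.05 or more. VE and early PrE over EPI share a column of 9 red points and 1 blue point for Elovl6, and in VE over early PrE the blue point is Me1 (-0.65) and the red point Acsl3 (0.36).

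Acly splits cytosolic citrate into acetyl-CoA and oxaloacetate. Its level was 77.7 and 65.8 CPM in VE of Types II and I, 95.1, 78.7 and 70.4 CPM in early PrE of Types III, II and I, 51.5, 54.5 and 53.3 CPM in TE, and 54.0, 50.3 and 48.1 CPM in EPI. The endoderm values did not overlap those of TE or EPI, and TE and EPI overlapped each other. The log2 fold change over EPI was 0.40 (SE 0.09) in VE with an adjusted p of 0.00158, and 0.52 (SE 0.09) in early PrE with an adjusted p of 0.000112. Without Type II the VE difference was 0.32 with an adjusted p of 0.140. In TE over EPI Acly was called lower at -0.26 (adjusted p 0.0223), but this was 0.08 with plain totals, and it was lost without Type II (-0.28, adjusted p 0.148) and after thinning to 10000 UMIs (-0.24, adjusted p 0.120).

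Acss2 makes acetyl-CoA from acetate and had the fewest UMIs of the 10. It stood at 9.61 and 7.81 CPM in VE of Types II and I, at 12.9, 9.36 and 8.69 CPM in early PrE of Types III, II and I, at 4.34, 4.05 and 3.52 CPM in TE and at 4.04, 3.56 and 3.92 CPM in EPI. Both endoderm states lay above all TE and EPI values, which overlapped each other. The log2 fold changes over EPI were 1.12 (SE 0.15, adjusted p 1.29e-05) in VE and 1.22 (SE 0.15, adjusted p 4.89e-06) in early PrE. Its exons share 335 bases with the antisense gene Acss2os and 395 and 197 bases with Gss and Ggt7 on the opposite strand, out of 10163 bases, and no source used here gives the strand setting of the counting.

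Acaca makes malonyl-CoA, the committed step of the pathway. Its level was 28.6 and 25.8 CPM in VE of Types II and I, 28.1, 27.6 and 23.0 CPM in early PrE of Types III, II and I, 20.6, 19.5 and 19.5 CPM in TE, and 12.8, 15.5 and 15.2 CPM in EPI. In these units endoderm, TE and EPI formed separate bands, although the 19 VE cells of Type III, left out of the tests, had 20.03 CPM (95% Poisson interval 14.0 to 27.9), at the level of TE. The differences over EPI were 0.73 (SE 0.10, adjusted p 1.32e-05) in VE and 0.66 (SE 0.10, adjusted p 3.03e-05) in early PrE. For TE over EPI the TMM-scaled value was 0.09 with an adjusted p of 0.482, and with plain totals it was 0.42 with an adjusted p of 0.00294. Of the 50-base windows at its transcript ends, 14.8% matched the pseudogene Gm5182.

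Fasn carries out the whole cycle of palmitate synthesis on a single polypeptide. It reached 117 and 102 CPM in VE of Types II and I and 122, 104 and 91.2 CPM in early PrE of Types III, II and I, against 55.4, 47.8 and 46.4 CPM in TE and 30.8, 40.3 and 38.1 CPM in EPI. The lowest endoderm value exceeded the highest TE value, and the lowest TE value exceeded the highest EPI value. Over EPI the log2 fold change was 1.44 (SE 0.11, adjusted p 5.03e-08) in VE and 1.34 (SE 0.10, adjusted p 6.20e-08) in early PrE. TE over EPI gave 0.07 (SE 0.11, adjusted p 0.588), and with plain totals 0.41 (adjusted p 0.00647). The 19 VE cells of Type III, left out of the tests, had 137 CPM with a 95% Poisson interval of 121 to 156, which like all intervals here covers counting error only.

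Me1, the cytosolic malic enzyme, turns malate into pyruvate with release of NADPH. Its level was 160 and 148 CPM in VE of Types II and I, 270, 238 and 244 CPM in early PrE of Types III, II and I, 51.7, 44.8 and 39.5 CPM in TE, and 31.9, 32.6 and 29.7 CPM in EPI. Here the 4 states formed 4 separate bands, with early PrE on top. The log2 fold change over EPI was 2.19 (SE 0.07, adjusted p 1.16e-11) in VE and 2.84 (SE 0.07, adjusted p 1.25e-12) in early PrE. Me1 was the only one of the 10 genes called lower in VE than in early PrE, where 9.41% of all genes were, at -0.65 (SE 0.07, adjusted p 2.85e-05), and it kept that call under every alternative run for that comparison, with 1 gene lower each time. In TE over EPI it stood at 0.17 (adjusted p 0.0502), and it passed the threshold with plain totals (0.51), with state thresholds doubled (0.40) and at 5000 UMIs or more for each cell (0.21).

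Acsl3 is an acyl-CoA synthetase of the endoplasmic reticulum and lipid droplets. It had 204 and 181 CPM in VE of Types II and I, 154, 151 and 132 CPM in early PrE of Types III, II and I, 201, 210 and 222 CPM in TE, and 59.0, 79.6 and 79.4 CPM in EPI. TE and VE overlapped, early PrE lay below both and EPI lay lowest. The log2 fold change over EPI was 1.21 (SE 0.10, adjusted p 1.37e-07) in VE, 0.84 (SE 0.10, adjusted p 2.76e-06) in early PrE and 1.19 (SE 0.09, adjusted p 1.46e-07) in TE. It was the only one of the 10 genes called higher in VE than in early PrE, where 10.4% of all genes were, at 0.36 (SE 0.10, adjusted p 0.0255). This call was lost without Type II (0.29, adjusted p 0.557), without Type I (0.33, adjusted p 0.172), without the cells over the Pou5f1 threshold (0.34, adjusted p 0.0810), without the library block (0.42, adjusted p 0.0507) and with state thresholds halved (0.27, adjusted p 0.0577). VE over TE was 0.01 (SE 0.10, adjusted p 0.917), and early PrE over TE was -0.35 (SE 0.09, adjusted p 0.00522), a call lost without Type I (-0.22, adjusted p 0.124), without Type II (-0.39, adjusted p 0.0518) and with state thresholds halved (-0.19, adjusted p 0.136). Acsl3 shares 244 of its 4357 exon bases with Utp14b on the same strand.

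Elovl1 lengthens saturated and monounsaturated acyl-CoAs to very long chains. Its level was 115 and 105 CPM in VE of Types II and I, 108, 97.3 and 92.2 CPM in early PrE of Types III, II and I, 55.2, 62.4 and 47.0 CPM in TE, and 7.14, 10.4 and 10.1 CPM in EPI. EPI lay far below all other states, and TE lay between EPI and endoderm without overlap. The highest mean was 12.0 times the lowest, the widest range of the 10 genes. The log2 fold change over EPI was 3.38 (SE 0.12, adjusted p 1.78e-11) in VE, 3.21 (SE 0.11, adjusted p 2.30e-11) in early PrE and 2.18 (SE 0.11, adjusted p 3.97e-09) in TE. VE over early PrE was 0.16 (SE 0.10, adjusted p 0.296), and it passed without Type III (0.22, adjusted p 0.0479) and with state thresholds halved (0.28, adjusted p 0.0316).

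After each cell was thinned to 10000 UMIs, Elovl1 was detected in 64.8% and 63.2% of VE cells of Types II and I, in 46.7%, 54.5% and 54.6% of early PrE cells of Types III, II and I, in 41.7%, 43.5% and 35.6% of TE cells, and in 8.26%, 8.76% and 8.55% of EPI cells. Unthinned, EPI shares were 28.9%, 37.1% and 37.0%, and VE shares 94.1% and 94.4%. At equal depth the share was lower in EPI than in every other state. Me1 was detected after thinning in 64.5% and 64.1% of VE cells, in 64.4%, 72.3% and 75.6% of early PrE cells, in 34.7%, 35.3% and 30.8% of TE cells and in 21.5%, 27.1% and 25.6% of EPI cells. Unthinned, Me1 shares were 89.7% and 91.9% in VE and 66.9%, 63.9% and 67.8% in EPI. No state here is known to lack these enzymes, so free RNA could not be set apart from low expression.

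Elovl6 lengthens palmitate to stearate, and it ran against the other 9 genes in both endoderm states over EPI. It had 57.9 and 53.8 CPM in VE of Types II and I, 57.2, 56.2 and 49.9 CPM in early PrE of Types III, II and I, and 44.8, 48.6 and 46.5 CPM in TE, against 67.5, 86.5 and 84.7 CPM in EPI. All EPI values lay above all values of the other states. The 19 VE cells of Type III had 45.8 CPM, within the range of TE. The log2 fold change over EPI was -0.70 (SE 0.09, adjusted p 7.75e-06) in VE, -0.72 (SE 0.08, adjusted p 3.22e-06) in early PrE and -1.11 (SE 0.08, adjusted p 9.12e-08) in TE. Over TE it was higher in VE by 0.41 (adjusted p 0.00164) and in early PrE by 0.39 (adjusted p 0.00157), calls that were lost with plain totals at 0.22 and 0.21. Without Type II, VE over TE was 0.39 with an adjusted p of 0.0962. Its level is uncertain, since 21.3% of the windows at its transcript ends matched the pseudogene Gm11295, which is not among the genes of the matrices.

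Fads1 and Fads2 encode the delta-5 and delta-6 desaturases that make long polyunsaturated fatty acids, and they lie close together on chromosome 19 (Fads1 at 10182888-10196877 on the plus strand, Fads2 at 10062765-10101746 on the minus strand, GRCm38). Fads1 had 49.7 and 45.2 CPM in VE of Types II and I and 49.7, 49.3 and 45.6 CPM in early PrE of Types III, II and I, against 18.6, 20.8 and 17.7 CPM in TE and 19.5, 20.1 and 17.5 CPM in EPI. Its values fell into a high endoderm band and a low band that TE and EPI shared. The log2 fold change over EPI was 1.19 in both VE (SE 0.08, adjusted p 7.63e-09) and early PrE (SE 0.07, adjusted p 5.03e-09), while VE over early PrE was -0.01 (SE 0.07, adjusted p 0.994). In TE over EPI it was called lower at -0.32 (adjusted p 0.00346), but this was 0.01 with plain totals, and it was lost without Type II (-0.35, adjusted p 0.0665) and with state thresholds halved (-0.13, adjusted p 0.245).

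Fads2 varied less. Its level was 36.0 and 29.3 CPM in VE of Types II and I, 28.9, 31.4 and 25.5 CPM in early PrE of Types III, II and I, 16.7, 19.0 and 18.2 CPM in TE, and 17.0, 24.0 and 21.6 CPM in EPI. Endoderm lay above EPI and TE, and TE overlapped EPI. VE over EPI was 0.42 (SE 0.10, adjusted p 0.00139), and without Type II 0.40 with an adjusted p of 0.0899. Early PrE over EPI was 0.27 (SE 0.09, adjusted p 0.0207), a call lost without Type II (0.31, adjusted p 0.125), without Type III (0.17, adjusted p 0.0891) and without the library block (0.28, adjusted p 0.0904). It was also lost by DESeq2 (0.24, adjusted p 0.0829), after thinning to 10000 UMIs (0.16, adjusted p 0.371) and with state thresholds halved (0.09, adjusted p 0.422), so 6 of 16 alternatives ended it. TE over EPI was -0.57 (SE 0.10, adjusted p 0.000261), and with plain totals -0.24 with an adjusted p of 0.0591.

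Within endoderm, Me1, Acsl3, Elovl1 and Fads2 had a steady order along the carrier genes in both Types II and I. How many of all genes have such an order was not counted, so nothing follows from it for the 10 genes as a group. Me1 was lower and Acsl3, Elovl1 and Fads2 were higher where carriers were higher, though the steps of Fads2 were small. VE and early PrE cells of a library were put into 4 bins by the summed CPM of Ttr, Rbp4, Apoa1 and Apoa2, with edges at 1000, 3000 and 10000 CPM, the lowest bin being the early PrE cells. From the lowest to the highest bin Me1 had 237.9, 202.2, 150.4 and 80.7 CPM in Type II. In Type I the same bins had 243.8, 198.2, 126.7 and 61.0 CPM. It was lower at every step in both libraries. For Acsl3 the bins of Type II had 151.3, 184.0, 203.3 and 254.7 CPM and those of Type I 132.2, 167.1, 178.7 and 233.0 CPM, higher at every step. Elovl1 ran the same way over a smaller range, at 97.3, 100.4, 116.9 and 147.5 CPM (Type II) and 92.2, 100.0, 105.2 and 119.6 CPM (Type I). Fasn showed no steady order, at 103.6, 129.1, 106.0 and 119.4 CPM (Type II) and 91.2, 107.5, 96.9 and 101.6 CPM (Type I). Fads2 was also higher at every step, by less, at 31.4, 35.5, 35.8 and 37.5 CPM (Type II) and 25.5, 27.7, 30.3 and 30.8 CPM (Type I). Its bins above 1000 CPM of carriers all lay within the 95% Poisson interval of all VE cells. That interval was 33.7 to 38.4 CPM in Type II and 27.3 to 31.4 CPM in Type I, so their order may be counting error. Acaca, Acly, Elovl6, Acss2 and Fads1 had no steady order shared by both libraries. The highest bin held 83 cells in Type II and 53 in Type I, and Type III had only 19 cells above the lowest bin. Cells share their library, so these bins are a description with no test.

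**Figure D3:**
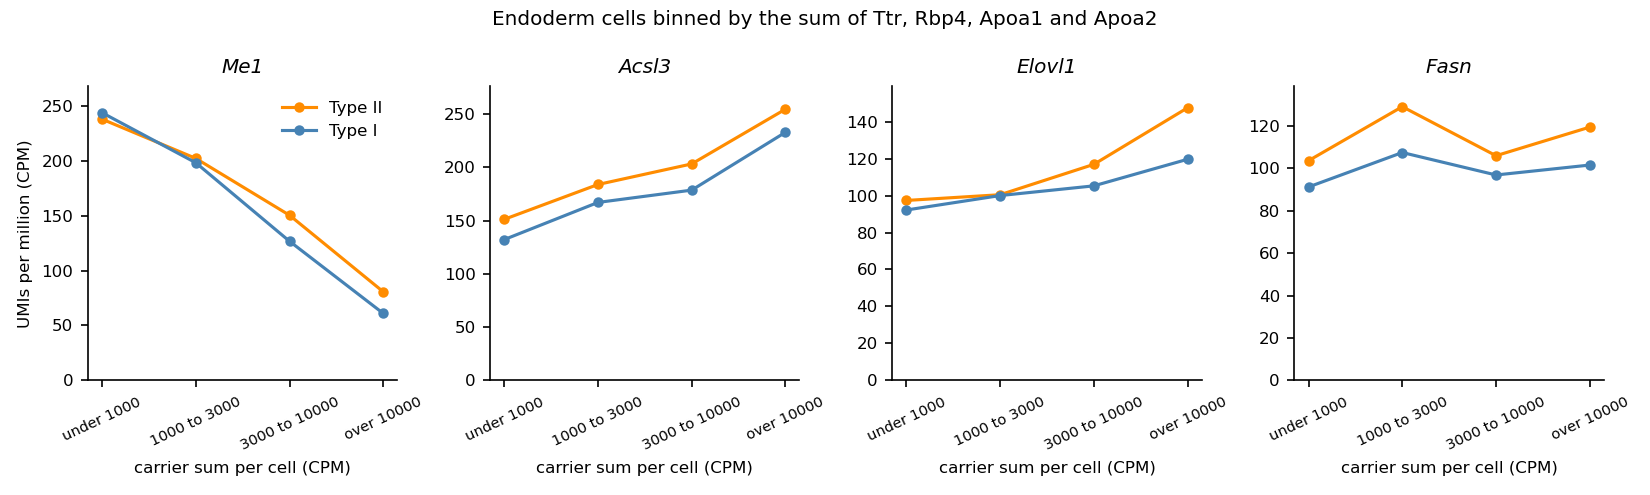
Level of Me1, Acsl3, Elovl1 and Fasn in CPM (vertical axis, from 0) over 4 bins of endoderm cells by their carrier gene sum, for Types I and II. Me1 is lowest in the highest bin, at 80.7 CPM (Type II) and 61.0 CPM (Type I), Acsl3 is highest there, at 254.7 CPM (Type II) and 233.0 CPM (Type I), and Fasn stays between 91.2 and 129.1 CPM.

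Me1 was at much the same level on both sides of the VE threshold. VE cells just above it, up to 1250 CPM of carriers, had 270.4 CPM of Me1 in 49 cells of Type II and 225.6 CPM in 23 cells of Type I. Early PrE cells just below it, down to 750 CPM, had 270.0 CPM in 36 cells of Type II and 222.0 CPM in 30 cells of Type I. Acsl3 had 166.8 CPM (Type II) and 161.2 CPM (Type I) just above, and 161.9 CPM (Type II) and 129.1 CPM (Type I) just below, so the sides lay close in Type II and apart in Type I. Over all libraries and counting cells of every state, 74 cells lay within that margin above the VE threshold and 78 below, and for TE, where cells were densest at the limit, 181 and 243.

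Types could be compared only in size, since each has 1 library. The size required was a 2-fold ratio or more, with 50 CPM reached in either library, and levels were compared as log2 ratios after adding 10 CPM. By that rule none of the 10 genes differed between types in any state. In Type III over Type I the share of all such genes that did was 1.31% in early PrE, 0.714% in TE, 0.214% in EPI and 1.6% over all kept barcodes. In Type III over Type II it was 1% in early PrE, 0.513% in TE, 0.258% in EPI and 1.03% over all kept barcodes. In Type II over Type I it was 0% in VE, 0.0745% in early PrE, 0.179% in TE, 0% in EPI and 0.0384% over all kept barcodes. At 50 CPM or more in either library were 3 to 6 of the 10 genes, depending on the state and pair.

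The smaller shifts had a direction that depended on the state. The share of all genes with a higher value was not counted for any pair of types, so the counts of the 10 genes below have no background. In early PrE all 10 genes had higher values in Type III than in Type I, with log2 ratios of 0.10 (Fads1) to 0.39 (Fasn) and a median of 0.20. The median over all genes with 50 CPM in either library was 0.04, but only 6 of the 10 reached that level, so the sets are unlike. The Type III early PrE sum stood apart in other ways. Of its 45 cells 17 were at or over the Pou5f1 threshold, against 44 of 271 in Type I, and its 2-cell-like markers summed to 49.4 CPM against 0 CPM in Type I, its blood and endothelium markers to 32.5 CPM against 4.21 CPM. Without the cells over the Pou5f1 threshold, 8 of the 10 genes were higher in Type III, with ratios of -0.05 to 0.38 and a median of 0.27. The part of the other markers was not tested. In EPI the median ratio of Type III over Type I was -0.19, with values from -0.37 (Acsl3) to 0.14 (Acly), and 4 of the 10 genes were higher. In VE all 10 genes had higher values in Type II than in Type I, by 0.09 (Elovl6) to 0.23 (Fads2), with a median of 0.13. The median over all genes with 50 CPM in either library was 0.02, a level that 6 of the 10 reached. Over all kept barcodes Type III over Type I had a median of -0.11, and there the states differ in their shares, with VE at 6.99% of kept cells in Type III against 31.5% in Type I. With 1 library for each type none of these shifts has a replicate check.

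Profiles over the 11 sums of state and library were compared by Pearson's r of log2(CPM + 10), as a description across points that share libraries and states. Over the 45 pairs of the 10 genes the median r was 0.79, with 22 pairs above 0.8 and 8 below 0. Pairs of all genes were not counted in this way, so these numbers do not set the 10 genes apart. Genes outside the pathway reached values as high, such as Washc5 with Fasn (0.990) and Gak with Elovl1 (0.995). Every pair below 0 included Elovl6, whose median r with the other genes was -0.37 and whose lowest was -0.83, with Acsl3. Acsl3 had a median of 0.32 and the pair of Acss2 and Acly the highest value, 0.98.

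**Figure D4:**
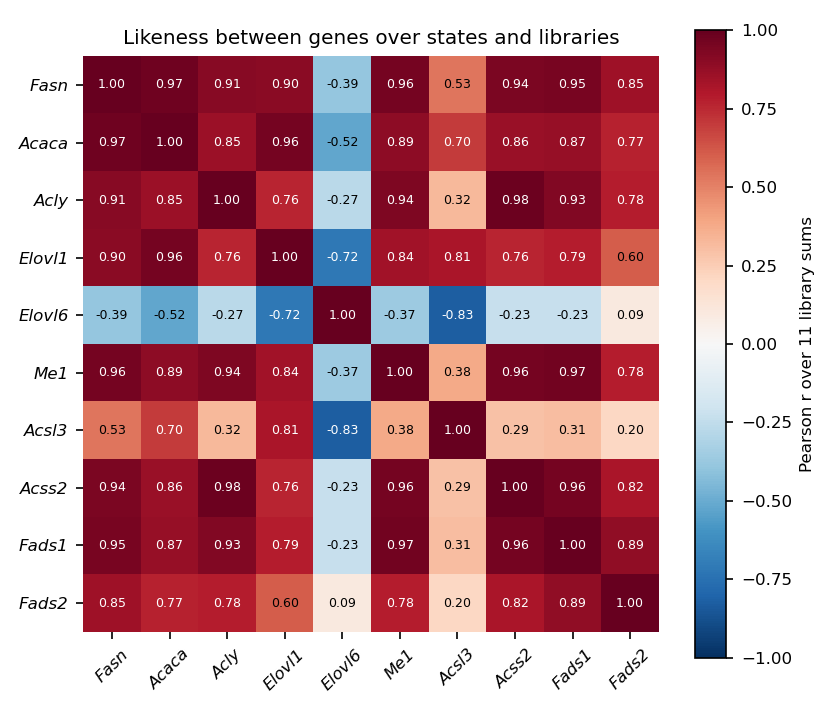
Pearson's r between each pair of the 10 genes over 11 sums of state and library, on a colour scale of -1 to 1 with each value printed. Most of the map is red, with 22 of 45 pairs above 0.8, while the row of Elovl6 is blue except for Fads2 (0.09). The same count was not made for pairs of all genes. In the row of Acsl3 only Elovl1 (0.81) is above 0.8.

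Among 3483 genes that reached 50 CPM in at least 1 sum, the profiles most like each member's were named. For Fasn they were Lss (r = 0.997), the lanosterol synthase of cholesterol synthesis, and Washc5 (0.990). Acaca was closest to Coro1c (0.987) and to Dhcr7 (0.982), the last enzyme of cholesterol synthesis. Acss2 was closest to Acly (0.981) and Rab1a (0.980), and Acly to Mrps26 (0.974). For Me1 they were Wdfy1 (0.997) and Runx1 (0.995), and for Fads1 Dram1 (0.997) and the endocytic receptor gene Cubn (0.996). Elovl1 was closest to Slc25a4 (0.996), a mitochondrial ADP/ATP carrier, and Gak (0.995), and Acsl3 to Pbrm1 (0.982) and the desmosome gene Dsp (0.981). Elovl6 was closest to Mrps24 (0.957) and Mrpl51 (0.950), both mitochondrial ribosomal protein genes, and Fads2 to the pseudogene Ftl1-ps1 (0.961) and Lamtor1 (0.958).

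Further genes of the pathway were followed as lists in VE over EPI. Plain totals moved the fold changes of all genes there by 0.14 on the log2 scale, as given above, and the list counts were made with TMM scaling alone. They stand beside 37.5% of all genes higher and 36.6% lower, with a median of 0.01. Of the 10 tested partners in the elongation cycle and other elongases, 6 were higher and 2 lower in VE over EPI. Elovl7, an elongase of saturated very long chains, averaged 19.0 CPM in VE and 1.53 CPM in EPI (log2 fold change 3.45, SE 0.19, adjusted p 1.75e-09), and Elovl5, an elongase of polyunsaturated chains, 31.3 CPM in VE and 14.7 CPM in EPI (0.98, SE 0.09, adjusted p 2.36e-07). The dehydratases of the cycle, Hacd4 (6.39 CPM in VE, 1.31 CPM in EPI, 2.21, SE 0.18, adjusted p 9.24e-08) and Hacd2 (132 CPM in VE, 65.6 CPM in EPI, 0.90, SE 0.07, adjusted p 3.89e-08), were higher too.

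Of 8 tested further desaturases, 5 were higher and 1 lower in VE over EPI. Scd1, which makes oleate from stearate, averaged 119 CPM in VE and 122 CPM in early PrE, against 23.6 CPM in EPI, with log2 fold changes of 2.14 (adjusted p 2.70e-09) and 2.18 (adjusted p 1.52e-09) over EPI. Its relative Scd2 averaged 258 CPM in VE, 227 CPM in early PrE and 147 CPM in TE, against 98.8 CPM in EPI, with 1.18 (adjusted p 9.45e-09) in VE over EPI. Degs1, a ceramide desaturase, averaged 189 CPM in VE and 61.5 CPM in EPI (1.54, SE 0.08, adjusted p 8.59e-10). Fads3 was higher at 1.89 (adjusted p 0.000400) and Scd3 lower at -2.02 (adjusted p 0.000243), both under 2 CPM in VE and EPI, and without Type II Fads3 was 1.74 with an adjusted p of 0.0589.

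Genes listed for citrate export and NADPH supply were followed next. The list also held the mitochondrial Me2, which is not a source of cytosolic NADPH. Of 9 tested genes 6 were higher and none was lower in VE over EPI. The mitochondrial malic enzyme Me2 averaged 206 CPM in VE and 45.4 CPM in EPI (2.00, SE 0.10, adjusted p 8.29e-10), and the citrate carrier Slc25a1 89.7 CPM in VE and 38.9 CPM in EPI (1.08, SE 0.09, adjusted p 1.30e-07). Aco1, the cytosolic aconitase, averaged 39.9 CPM in VE and 12.5 CPM in EPI (1.54, SE 0.10, adjusted p 1.09e-08), and Idh1, which makes NADPH from isocitrate, 64.6 CPM in VE and 26.8 CPM in EPI (1.14, SE 0.08, adjusted p 2.05e-08). G6pdx, the entry of the pentose phosphate route, was not called, at 16.8 CPM in VE and 14.6 CPM in EPI (0.07, SE 0.11, adjusted p 0.557).

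Acyl-CoA synthetases other than Acsl3 and Acss2 had 3 higher and 5 lower of 9 in VE over EPI, where 37.5% and 36.6% of all genes were. Their median log2 fold change was -0.55, against 0.01 for all genes. Acsl4, which prefers arachidonate, averaged 79.9 CPM in VE and 18.4 CPM in EPI (1.92, SE 0.09, adjusted p 2.24e-10). The mitochondrial acetate enzyme Acss1 averaged 0.306 CPM in VE and 3.73 CPM in EPI (-3.73, SE 0.38, adjusted p 7.41e-07). Slc27a2 (-3.53) and Acsl6 (-2.12) were lower at levels under 2 CPM, calls lost without Type II for Slc27a2 (-2.97, adjusted p 0.0991) and without Type I for Acsl6 (-1.42, adjusted p 0.118).

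The list of carboxylase control and mitochondrial fatty acid synthesis had 4 higher and 3 lower of 7 in VE over EPI. Acacb, the mitochondrial-membrane form of acetyl-CoA carboxylase, ran against Acaca, with 0.592 CPM in VE and 8.93 CPM in EPI (-3.87, SE 0.26, adjusted p 1.32e-08). Mid1ip1, an activator of the carboxylase, averaged 5.59 CPM in VE and 24.3 CPM in EPI (-2.33, SE 0.22, adjusted p 4.72e-07), and Mcat, of the mitochondrial pathway, 9.82 CPM in VE and 21.8 CPM in EPI (-1.20, SE 0.12, adjusted p 8.99e-07). Oxsm, of the same mitochondrial pathway, was higher at 0.93 (adjusted p 0.00165), and without Type II it was 0.67 with an adjusted p of 0.128.

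Of 14 regulators of the pathway, 6 were higher and 4 lower in VE over EPI, near the shares of all genes. Srebf1, which encodes SREBP1, averaged 24.5 CPM in VE, 20.8 CPM in early PrE and 15.6 CPM in TE, against 7.78 CPM in EPI, with log2 fold changes over EPI of 1.59 (adjusted p 1.57e-08), 1.30 (adjusted p 1.31e-07) and 0.65 (adjusted p 0.000274). Its escort Scap averaged 14.1 CPM in VE and 5.07 CPM in EPI (1.43, SE 0.13, adjusted p 2.37e-07), and Insig1, which retains SREBPs in the endoplasmic reticulum, 149 CPM in VE and 31.2 CPM in EPI (2.01, SE 0.10, adjusted p 6.48e-10). Usf1, an E-box factor, was lower, at 13.7 CPM in VE and 42.7 CPM in EPI (-1.83, SE 0.11, adjusted p 3.96e-09). The receptor gene Nr1h2 averaged 13.8 CPM in VE and 23.1 CPM in EPI (-0.84, SE 0.09, adjusted p 1.48e-06), and Nr1h3 0.522 CPM in VE and 0.306 CPM in EPI (0.44, SE 0.54, adjusted p 0.472).

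Genes that put fatty acids to use made up a further list. Of 12 genes of glycerolipid synthesis and lipid droplets 9 were higher and 1 lower in VE over EPI, with a median log2 fold change of 1.16. Mttp, which loads lipid onto apolipoprotein B, averaged 139 CPM in VE and 11.2 CPM in EPI (3.47, SE 0.09, adjusted p 2.35e-12), and Dgat2, the last step of triglyceride synthesis, 28.3 CPM in VE and 2.49 CPM in EPI (3.28, SE 0.16, adjusted p 4.36e-10). Gpam, the first step of glycerolipid synthesis, averaged 21.2 CPM in VE and 3.04 CPM in EPI (2.66, SE 0.14, adjusted p 8.37e-10), and the acyltransferase Agpat3 112 CPM in VE and 25.3 CPM in EPI (1.98, SE 0.09, adjusted p 2.37e-10).

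Of 15 genes of fatty acid oxidation, 10 were higher and 4 lower in VE over EPI, where 37.5% and 36.6% of all genes were, and their median log2 fold change was 0.54. Cpt2, a carnitine acyltransferase of the inner mitochondrial membrane, averaged 24.1 CPM in VE and 8.19 CPM in EPI (1.45, SE 0.12, adjusted p 1.49e-07). Acadvl, the very long chain dehydrogenase, averaged 17.7 CPM in VE and 6.41 CPM in EPI (1.36, SE 0.12, adjusted p 1.52e-07). Cpt1a, which controls entry into mitochondria, was lower, with 1.35 CPM in VE and 7.26 CPM in EPI (-2.17, SE 0.31, adjusted p 2.03e-05).

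**Figure D5:**
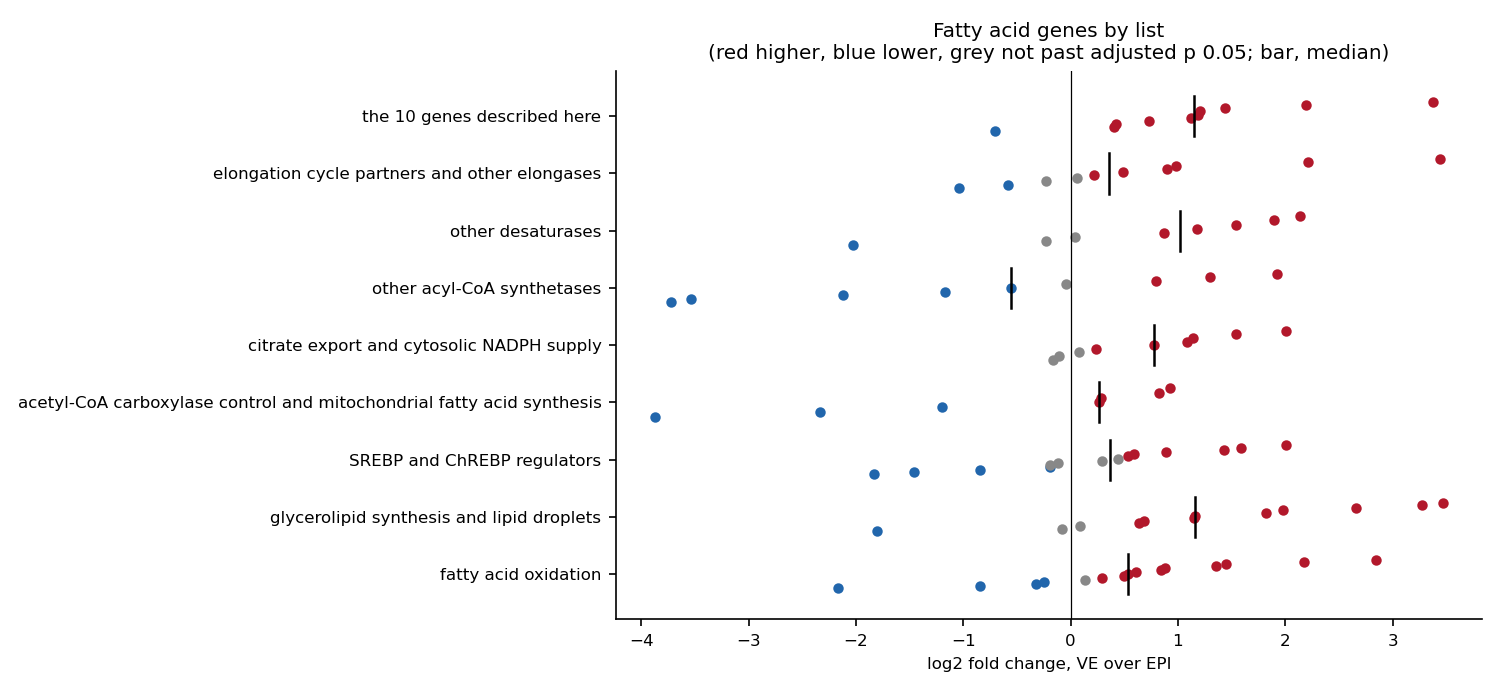
Log2 fold change in VE over EPI of each tested gene (1 point each) for the 10 enzyme genes and 8 further lists, with red for higher, blue for lower, grey for an adjusted p of 0.05 or more and a black bar at the list's median. Medians run from -0.55 (other acyl-CoA synthetases) to 1.16 (glycerolipid synthesis and lipid droplets), beside 1.15 for the 10 enzyme genes and 0.01 for all genes tested.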

How the data were processed

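UMI counts per gene and barcode were deposited as 1 matrix for each of 3 libraries, which per the file headers came from Cell Ranger 6.0.1 and, per the submitters' processing notes, used build mm10. No source used here says how barcodes were called as cells. Counts were summed per library and state (at least 20 cells) and tested with edgeR 4.0.16 (glmQLFit, glmQLFTest, TMM, filterByExpr by state, library as a block) over 11 sums, with 5 residual degrees of freedom and a common dispersion of 0.00478. Benjamini-Hochberg adjustment ran over all 14080 genes. CPM levels use plain totals, and fold changes use TMM. The SE of a fold change is its absolute log2 value divided by the square root of the quasi-likelihood F statistic, and was not estimated separately. Intervals are exact 95% Poisson intervals for levels. UMIs in the sums ranged widely, with kept barcodes at median depths of 71540, 41491 and 52224 UMIs in Types III, II and I.

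The same-library pairing comes from the libraries themselves, since states were sorted within each library by computation. The 10 genes and all lists were chosen with earlier results of these data known. Named pathway genes are up to 4 of each list with the largest VE over EPI change past the threshold and of 1 sign in all libraries, plus Scd1, Scd2, Srebf1, Nr1h2 and Nr1h3; G6pdx was named after its values were seen. The 2 most like genes leave out mitochondrial, ribosomal protein, sex-linked marker, numbered and state rule genes. Some genes that these rules name are not reported here.

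No doublet caller was run. Cells over the Pou5f1 threshold and the deepest 5% of cells were left out in turn instead. Alternatives were DESeq2 1.42.0, plain totals, no low-count filter, no block, other depth, mitochondrial and state limits, thinning, and leaving out each library. Gene overlaps come from GENCODE M21, and copies were searched with blastn 2.17.0 in windows of 50 bases with at least 48 bases at 96% identity. The edgeR step was tested on simulated counts.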

Additional observations from a re-analysis of the deposited data

Results flagged for a closer look

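Reads of the 10 genes were also found in barcodes that no comparison used. Barcodes under 10000 UMIs had a summed level of the 10 genes of 389 CPM in Type III (2013 barcodes), 429 CPM in Type II (7232 barcodes) and 502 CPM in Type I (5392 barcodes). Kept barcodes that met no state threshold had 434 CPM in Type III (15 cells), 388 CPM in Type II (193 cells) and 422 CPM in Type I (132 cells). Both sets lie between the EPI sums (304 to 363 CPM) and the TE sums (513 to 531 CPM). They were looked at because they lie outside the comparisons, and no cell state is given to them.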

How the results depend on the processing

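Each comparison was recomputed under 16 alternatives, and most values kept their direction and their side of the threshold (899 of 960 for the 10 genes). Thinned to 10000 UMIs, all genes higher in early PrE over EPI were 3393 (5090 before), higher and lower in TE over EPI 2399 and 2778 (3861 and 4383), in VE over early PrE 912 and 855 (1464 and 1325), and in early PrE over TE 2724 and 2383 (4381 and 3935). With plain totals TE over EPI had 5 and 1 of the 10 genes and 6440 and 2358 of all genes. Without the replicate block (library), VE over early PrE had 0 of the 10 genes higher and 823 of all genes lower, and no other count moved by over 1.5 times. With halved state thresholds it had 2 of the 10 higher and 2326 and 2420 of all genes, and early PrE over TE had 0 of the 10 lower. Without Pou5f1-positive cells VE over early PrE had 0 of the 10 higher. With 1 library left out, VE over early PrE had 0 to 2 of the 10 genes higher, 145 to 1719 of all genes higher and 102 to 1473 lower. TE over EPI had 2 to 4 of the 10 lower and 2731 to 4192 of all genes lower, VE over TE 2980 to 4799 higher and 2496 to 4476 lower, and early PrE over TE 0 to 1 of the 10 and 2583 to 3894 of all genes lower. Leaving out Type II or Type I leaves 1 VE sum, assumed to vary like the others. The lowest counts of all genes came without Type II. Shares thinned to 5000 UMIs were 41.5%, 37.1%, 19.0% and 5.16% for Elovl1 and 45.4%, 57.8%, 17.5% and 11.4% for Me1 in VE (Types II and I), early PrE, TE and EPI. The alternative with cells of 1 threshold only could not be run for VE, which had 13 such cells.

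Signs turned in 28 cases, none past the threshold after turning. In TE over EPI, plain totals gave Acly 0.075, Fads1 0.0085 and Acss2 0.035, and Fasn (0.07) was -0.058 thinned and -0.053 to 0.20 with 1 library left out. In VE over early PrE, Elovl6 (0.02) was -0.048 to 0.081 with 1 library left out, -0.0031 at 20000 UMIs, -0.0097 at 5000 UMIs, -0.020 with halved thresholds and without Pou5f1-positive cells, and -0.011 with the 19-cell sum. Fads1 (-0.01) was 0.0015 without the block, -0.027 to 0.0049 with 1 library left out, 0.049 at 5000 UMIs, 0.18 with halved thresholds and 0.038 with the 19-cell sum. Acaca was -0.015 with doubled thresholds, Acly 0.0021 thinned and Acss2 0.0060 with halved thresholds. In VE over TE, Acsl3 (0.01) was -0.034 by DESeq2, -0.18 with plain totals, -0.094 to 0.11 with 1 library left out, -0.017 at 20000 UMIs, -0.0088 thinned, -0.026 without the deepest cells and -0.014 without Pou5f1-positive cells. Apart from the scaling, the cause was not tested. The 19-cell sum and the Pou5f1 alternative were added after the data were seen.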
